A study of Mus musculus with 16 samples.

Results

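The amyloid precursor protein App, the enzymes that cut it and 2 further genes tied to Alzheimer's disease were followed through the somatosensory cortex of undisturbed and sleep-disrupted mice. The 9 genes were App, Adam10, Bace1, Bace2, Psen2, Ncstn, Aph1a, Apoe and Mapt, taken by symbol from the 24421 genes of the deposited tables, and all 9 had reads in every one of the 12 libraries. Bace2 was chosen by its fall after sleep disruption (SD) in wild-type mice, so values from that comparison are given here as a description, without a test. The other 8 genes were chosen for their part in the same pathway, with results of these data known.

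The 4 groups of 3 libraries were compared, each library from 1 mouse and named by group and replicate. CTL-WT were undisturbed wild-type mice (C57BL/6 in the labels, C57BL/6J in the study's text), SD-WT were wild-type mice after SD, CTL-AcPbKO were undisturbed AcPb-/- mice and SD-AcPbKO were AcPb-/- mice after SD. AcPb is the neuron-specific form of the interleukin-1 receptor accessory protein, which the gene Il1rap encodes. SD was 8 h of gentle handling that began at ZT20 and ended at ZT4, where ZT0 is lights on. All mice were homozygous offspring aged 2 to 3 months, labelled male, and both the SD and the undisturbed mice were killed at ZT4. The labels name 4 more samples without matching columns, which were not used here.

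The precursor App is a membrane protein that is cut along competing routes. The alpha-secretase Adam10 cuts inside the amyloid beta stretch and so prevents its release. The beta-secretase Bace1 makes the first cut toward amyloid beta, after which gamma-secretase, a complex built on a presenilin (here Psen2) with Ncstn, Aph1a and Psenen, releases the peptide within the membrane. Bace2 is the close homolog of Bace1 and is known to cut App mostly inside the amyloid beta stretch rather than at its start. Apoe carries lipids between glia and neurons and affects amyloid beta clearance, and Mapt encodes the microtubule protein tau. Bace1 is the main beta-secretase of neurons, whereas Bace2 is known for a low level in the brain.

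The codons around the catalytic sites of both homologs and around the beta cut in App are shown because they say what kind of enzyme Bace2 is and where Bace1 acts on App. They were read from GENCODE M21 transcripts on GRCm38, 5′ to 3′ on the coding strand, with the codons of the aspartate-threonine-glycine or aspartate-serine-glycine motif, or the 2 codons on either side of the beta cut, in capitals. Each stretch holds 6 codons on either side of the capitals.
Bace2, first catalytic motif: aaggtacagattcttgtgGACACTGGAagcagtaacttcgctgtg
Bace1, first catalytic motif: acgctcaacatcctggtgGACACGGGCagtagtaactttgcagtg
Bace2, second catalytic motif: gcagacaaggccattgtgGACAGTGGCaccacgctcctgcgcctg
Bace1, second catalytic motif: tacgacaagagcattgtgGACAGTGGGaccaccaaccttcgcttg
App, beta cut: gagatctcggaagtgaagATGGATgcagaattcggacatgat
The Bace2 stretches lie at chr16:97357099-97399675, across the junction of exons 1 and 2 of 9, and at chr16:97415085-97415129 in exon 6, on the + strand. Those of Bace1 lie at chr9:45839286-45852929, across exons 1 and 2 of 9, and at chr9:45858406-45858450 in exon 6, on the + strand. The App stretch lies at chr16:84965700-84965741 in exon 16 of 18 on the - strand. All are coding exons. The 2 homologs, of 514 residues in Bace2 and 501 in Bace1, were identical at 51.6% of 479 residues in a global alignment. Their transcripts shared no stretch longer than 15 bases, far less than a sequencing read.

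Read totals on genes were 32.9 to 41.6 M in CTL-WT, 58.8 to 71.8 M in SD-WT, 26.5 to 35.7 M in CTL-AcPbKO and 63.4 to 71.9 M in SD-AcPbKO, so every SD library was deeper than every control. The labels call all mice male, but 4 control libraries (CTL-WT 02 and 03, CTL-AcPbKO 04 and 05) held 25352 to 39358 reads of Xist, the RNA of the inactive X chromosome, and at most 2 reads of 4 Y-linked genes. The other 8 libraries held at most 13 Xist reads and 5105 to 10593 Y-linked reads, and all 6 SD libraries were among these. By these reads the 4 libraries came from female tissue and the other 8 from male tissue, against the labels. Fits with a term for Xist are therefore given beside the values of the 9 genes and the counts of the pathway lists. Gene-level reads of Il1rap were not lower in AcPb-/- mice (normalized counts 1515.4 to 1647.4 in CTL-AcPbKO against 1476.1 to 1519.9 in CTL-WT), and since AcPb is 1 form of this gene they do not check the deletion. The cortical excitatory neuron marker Slc17a7 had 58880 to 68810 normalized counts in CTL-WT, 50180 to 57770 in SD-WT, 66360 to 75890 in CTL-AcPbKO and 60150 to 62100 in SD-AcPbKO. It was thus lower after SD without overlap in both genotypes. The striatal marker Adora2a had 813.9, 488.8 and 99.46 in CTL-WT 01, 02 and 03 and 94.05 to 101.2 in SD-WT. In AcPb-/- mice it had 94.8 to 284.4 without SD and 72.79 to 271.0 after it. SD-AcPbKO 04 also held 16190 normalized counts of Ttr, a choroid plexus gene that did not pass 283.1 in any other library.

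Bace2 was low in undisturbed cortex and far lower after SD in both genotypes. Levels between libraries are given as normalized counts, reads divided by 1 size factor per library. In CTL-AcPbKO replicates 03, 04 and 05 Bace2 had 197.0, 271.9 and 260.3 normalized counts. In SD-AcPbKO replicates 02, 03 and 04 it had 63.5, 79.83 and 58.88. The lowest undisturbed mouse thus lay well above the highest SD mouse, and the group means were 243.1 ± 40.3 and 67.4 ± 11.0 (standard deviation, n = 3). Bace2 fell 3.56-fold in these mice (log2 fold change -1.83, standard error 0.19, 95% interval -2.25 to -1.41), with an adjusted p of 0.000692 by limma over all genes tested. Reads behind these values numbered 82 to 301 over the 12 libraries. In whole tissue, fewer cells that express a gene and less RNA per cell cannot be told apart.

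The wild-type values, from which Bace2 was chosen, were 215.2, 324.0 and 336.4 in CTL-WT 01, 02 and 03 and 64.02, 82.16 and 79.98 in SD-WT 01, 02 and 04. Here too the groups did not overlap, and the means were 291.8 ± 66.7 and 75.39 ± 9.9 (n = 3). The log2 fold change was -1.92 (standard error 0.19), a level 3.79-fold lower after SD. Genes past the threshold in the downward direction with a mean of at least 50 were ranked by log2 fold change. Bace2 was the third lowest of 2258 in wild-type mice, behind Xist and the neuronal pentraxin receptor Nptxr. Since Bace2 was chosen by its fall in this contrast, nothing is read from that rank. In AcPb-/- mice Bace2 was the sixth lowest of 2545, behind Xist, Nptxr, Mybpc3, Gm12070 and Hes5.

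Xist moved with part of the Bace2 spread. In each genotype the control with the lowest Bace2 was the one without Xist, CTL-WT 01 and CTL-AcPbKO 03. Among libraries without Xist, Bace2 was still 2.85-fold lower after SD in wild-type mice and 2.92-fold lower in AcPb-/- mice, each against 1 control, which allows no test. With a term for Xist in 1 fit of the 12 libraries, the log2 fold change was -1.48 in AcPb-/- mice (standard error 0.18, limma adjusted p 0.000313) and -1.57 in wild-type mice (standard error 0.18). Xist varied only among the controls. The fit therefore rests on 1 control without Xist per genotype and on 1 Xist effect taken to be the same in both genotypes. It also draws on the wild-type libraries from which Bace2 was chosen, and it does not remove the imbalance. Bace2 was higher by 0.52 on the log2 scale in libraries with Xist (standard error 0.16), and this difference did not pass the threshold (limma adjusted p 0.181).

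Bace1 showed no such fall. It had 6996, 6115 and 5883 normalized counts in CTL-AcPbKO 03, 04 and 05, and 6902, 6527 and 7066 in SD-AcPbKO 02, 03 and 04. The groups overlapped, and the log2 fold change of 0.12 (standard error 0.07, 95% interval -0.05 to 0.29) did not pass the test (limma adjusted p 0.295). In wild-type mice Bace1 had 6681, 6055 and 5947 normalized counts without SD and 6329, 6184 and 6579 after it, a log2 fold change of 0.03 (standard error 0.06). As with Bace2, the control without Xist stood apart in each genotype, but for Bace1 it was the highest. With the Xist term the Bace1 value became -0.01 in AcPb-/- mice and -0.09 in wild-type mice (standard error 0.06 in each). At least 15.4% of Bace1 exon sequence overlaps genes of the opposite strand, among them Rnf214, and the counting strand is not given in the sources used here.

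**Figure D1:**
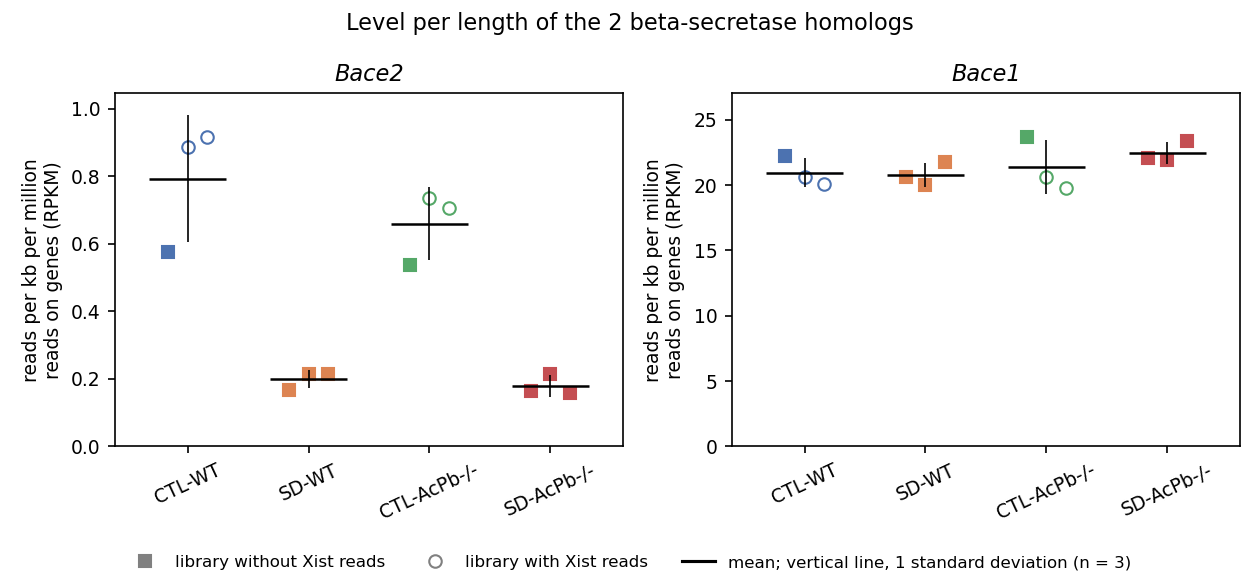
RPKM (reads scaled for exon length and for the library's reads on genes, vertical axes from 0) of Bace2 and Bace1 in the 12 libraries by group, with circles for the 4 libraries with Xist reads, lines for means and bars of 1 standard deviation. All 6 SD libraries lie below the 6 controls for Bace2, from 0.157 to 0.215 against 0.537 to 0.917, while the Bace1 groups overlap between 19.8 and 23.7.

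Per length of exon, Bace1 was far above Bace2 in every library. The ratio of their RPKM values (reads scaled for exon length and for the library's reads on genes) averaged 27.9 in CTL-WT (22.0 to 38.6) and 33.4 in CTL-AcPbKO (27.9 to 44.1). After SD it averaged 106 in SD-WT (93.5 to 123) and 129 in SD-AcPbKO (102 to 149). The ranges of undisturbed and SD mice did not overlap in either genotype. The ratio holds the same Bace2 values as above, in wild-type mice those by which Bace2 was chosen, so nothing further is read from it. Over all 12 libraries the mean RPKM was highest for Apoe (457), then App (149), Mapt (90.1), Bace1 (21.4), Ncstn (19.0), Adam10 (18.9), Aph1a (6.57), Psen2 (2.91) and Bace2 (0.457). The ranges of neighbours in this order did not overlap, except those of Bace1 (19.8 to 23.7), Ncstn (17.7 to 20.7) and Adam10 (16.9 to 22.2).

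The alpha-secretase Adam10 rose in AcPb-/- mice by a small amount, and its substrate App was lower after SD in both genotypes without passing the test. App had 95386, 98610 and 95957 normalized counts in CTL-AcPbKO 03, 04 and 05 and 82055, 85207 and 83934 in SD-AcPbKO 02, 03 and 04. The groups did not overlap, but the log2 fold change of -0.20 (standard error 0.08) did not pass the test (limma adjusted p 0.0809). It passed with edgeR (adjusted p 0.0258) and DESeq2 (adjusted p 0.00194) on recovered reads and missed it with the Xist term (limma, adjusted p 0.0513). In wild-type mice App had 106020, 94884 and 97567 without SD and 86463, 84963 and 85622 after it, again with no overlap (log2 fold change -0.21, standard error 0.08, and -0.25 with the Xist term).

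Adam10 had 4132, 4188 and 3878 normalized counts in CTL-AcPbKO 03, 04 and 05. In SD-AcPbKO 02, 03 and 04 it had 5066, 4299 and 5193, and the middle library lay close to the controls. It rose by 0.25 on the log2 scale (standard error 0.08, limma adjusted p 0.0448). That call was lost with the Xist term (adjusted p 0.0518) and when any 1 library other than SD-AcPbKO 03 was left out (limma adjusted p up to 0.152). Without SD-AcPbKO 03 the value was 0.340 (limma adjusted p 0.00665). In wild-type mice Adam10 had 4160, 4087 and 4204 without SD and 4636, 4559 and 4508 after it, a log2 fold change of 0.14 (standard error 0.05, and 0.12 with the Xist term) with no overlap.

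Of the gamma-secretase genes, Aph1a and Psen2 fell after SD in AcPb-/- mice and Ncstn did not pass the test. Aph1a, a scaffold of the complex, had 1125, 1222 and 1249 normalized counts in CTL-AcPbKO 03, 04 and 05 against 888.9, 972.4 and 881.1 in SD-AcPbKO 02, 03 and 04. Its log2 fold change of -0.39 (standard error 0.07, limma adjusted p 0.00616) passed the test with the Xist term (-0.31, adjusted p 0.0262) and without any 1 library. In wild-type mice Aph1a had 1148, 1252 and 1241 without SD and 948.9, 872.2 and 1063 after it (log2 fold change -0.34, standard error 0.08, and -0.25 with the Xist term), with no overlap. Aph1a is uncertain as a gene, since 19.5% of its 100-base stretches also occur in Gm15429 and 12.9% of its exon sequence overlaps Car14 on the other strand.

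Psen2, a catalytic subunit, had 656.2, 690.4 and 645.2 normalized counts in CTL-AcPbKO 03, 04 and 05 and 484.7, 542.5 and 555.5 in SD-AcPbKO 02, 03 and 04. The log2 fold change was -0.33 (standard error 0.08, limma adjusted p 0.0207), and -0.30 with the Xist term (limma adjusted p 0.0404). Its call was lost without CTL-AcPbKO 04 (limma adjusted p 0.0808) or without SD-AcPbKO 02 (limma adjusted p 0.0669). In wild-type mice Psen2 had 627.9, 663.4 and 663.8 without SD and 520.9, 522.0 and 591.7 after it, with no overlap (log2 fold change -0.26, standard error 0.08, and -0.23 with the Xist term). Ncstn, the subunit that takes up substrates, had 3477, 3440 and 3478 in CTL-AcPbKO and 3601, 3451 and 3348 in SD-AcPbKO. Those groups overlapped, with a log2 fold change of 0.00 (standard error 0.05, 95% interval -0.12 to 0.12, limma adjusted p 0.972). It was 0.00 with the Xist term as well. In wild-type mice the Ncstn difference was 0.07 (standard error 0.07, and 0.08 with the Xist term), with 3572, 3527 and 3697 normalized counts without SD and 3945, 4015 and 3430 after it.

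Apoe fell in AcPb-/- mice and had overlapping groups in wild-type mice. It had 48084, 52148 and 53888 normalized counts in CTL-AcPbKO 03, 04 and 05 and 43843, 40422 and 42726 in SD-AcPbKO 02, 03 and 04. Apoe fell by 0.28 on the log2 scale (standard error 0.08, limma adjusted p 0.0279), and the call was lost with the Xist term (limma adjusted p 0.135) and without any 1 of CTL-AcPbKO 04 or 05 or SD-AcPbKO 03 or 04 (limma adjusted p 0.0631 to 0.0993). In wild-type mice the values were 47438, 48117 and 42870 without SD and 51579, 44903 and 39477 after it, a log2 fold change of -0.03 (standard error 0.10, 95% interval -0.25 to 0.19, and -0.01 with the Xist term). The difference of the SD effects, AcPb-/- minus wild-type, was -0.25 (standard error 0.13, 95% interval -0.53 to 0.04) and did not pass the test (limma adjusted p 0.986).

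Astrocytes and microglia are known sources of Apoe in the brain. Summed normalized counts of 7 microglial markers were 12775 to 15430 in SD-AcPbKO against 16942 to 17753 in CTL-AcPbKO, and 3 of the 7 fell. Those of 8 astrocyte markers were 260573 to 277527 against 257220 to 298303, and 1 of the 8 fell. Of all genes tested, 13.3% fell in these mice. None of these markers was at 0 in all libraries. In wild-type mice, where 13.2% of all genes rose and 12.2% fell, the microglial sums overlapped (16320 to 17716 after SD, 17429 to 18595 without). There 1 of the 7 microglial markers rose and 0 fell. The astrocyte sums overlapped as well (269781 to 303437 after SD, 263013 to 304161 without), and 2 of the 8 fell. The part of these cell types in the Apoe values was not tested.

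Mapt was higher after SD without passing the test. It had 31267, 30222 and 28895 normalized counts in CTL-AcPbKO 03, 04 and 05 and 36016, 33364 and 34395 in SD-AcPbKO 02, 03 and 04, with no overlap. The log2 fold change was 0.20 (standard error 0.07, limma adjusted p 0.0541). It passed with edgeR (adjusted p 0.0338) and DESeq2 (adjusted p 0.0106), and with the Xist term it was 0.12 (limma adjusted p 0.328). In wild-type mice Mapt had 32168, 29111 and 28060 without SD and 35518, 35624 and 31511 after it, so that 1 SD mouse lay below the highest control (log2 fold change 0.20, standard error 0.08, and 0.12 with the Xist term).

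**Figure D2:**
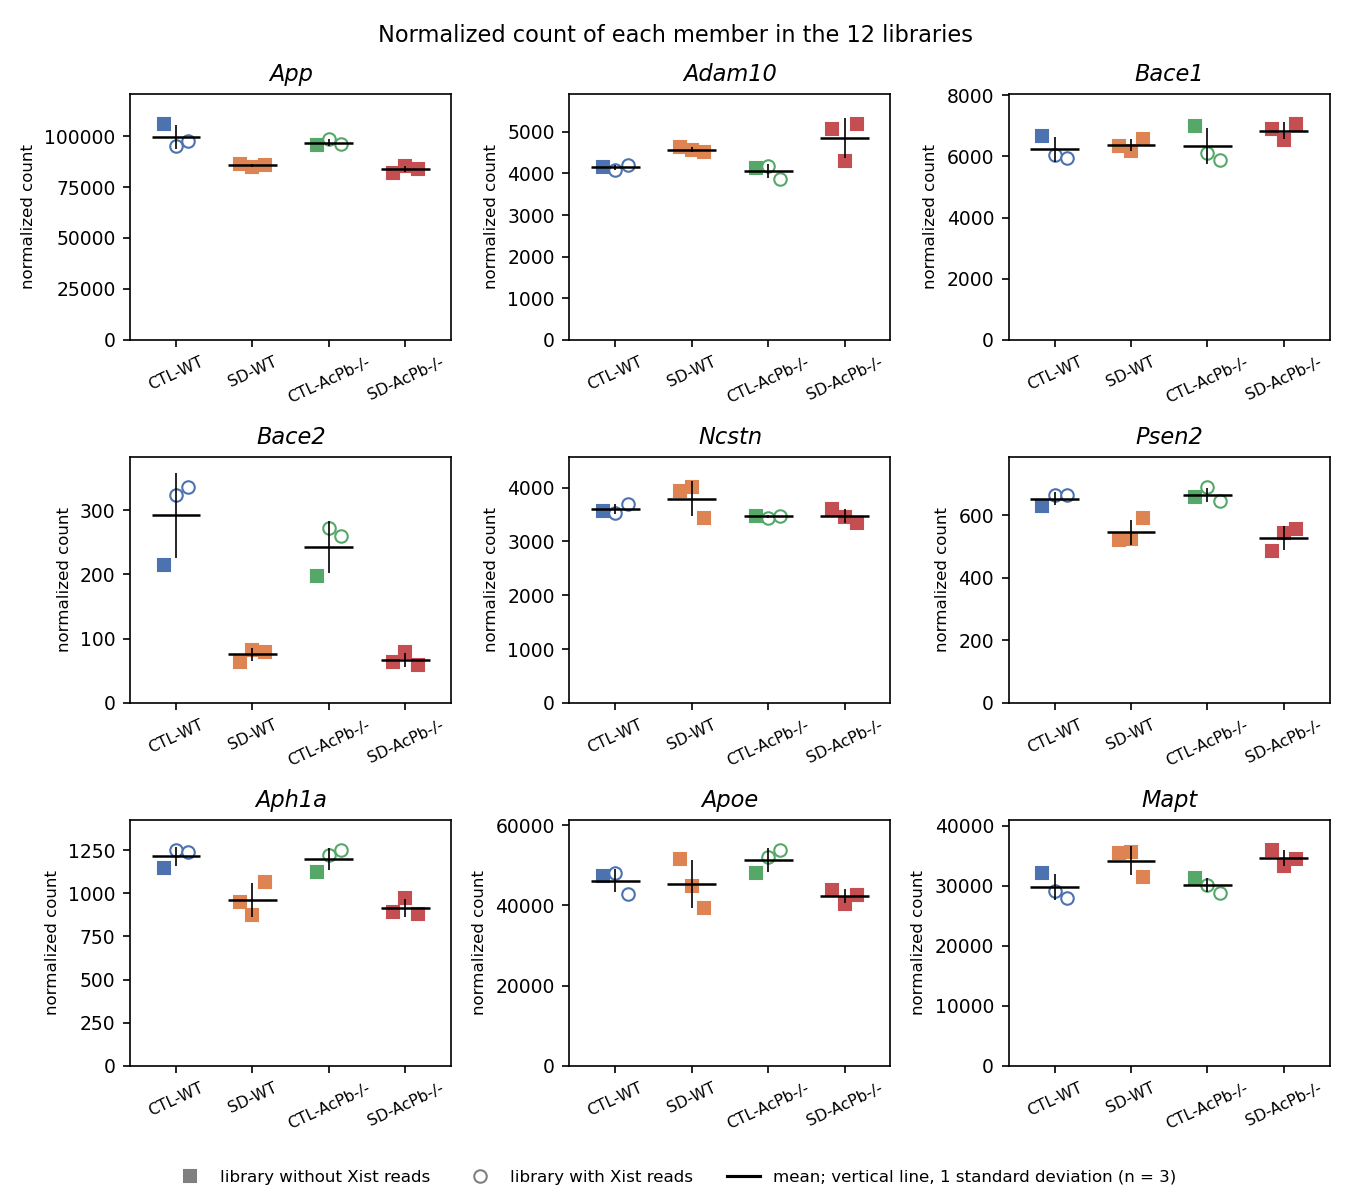
Normalized counts (vertical axes from 0) of the 9 genes in the 12 libraries by group, with circles for libraries with Xist reads, lines for means and bars of 1 standard deviation (n = 3). Bace2 separates SD from undisturbed mice by a wide gap, Aph1a, Psen2 and App by a narrow one, and Bace1 and Ncstn overlap.

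After SD in AcPb-/- mice 5 of the 9 genes passed the threshold, 1 upward and 4 downward, against 27.4% of all 20574 genes tested (14.1% upward and 13.3% downward). The groups did not overlap for 7 of the 9, 2 higher and 5 lower, against 42.4% of all genes. The median log2 fold change of the 9 was -0.20, and that of all genes tested was 0.014. In wild-type mice 3 of the 9 passed, all downward (Bace2, Aph1a and Psen2), beside 25.4% of 20417 genes (13.2% upward, 12.2% downward), and 5 of the 9 did not overlap, beside 40.2%. Bace2 was chosen from that contrast and nothing is read from those shares. With the Xist term 3 of the 9 passed in AcPb-/- mice (Bace2, Aph1a and Psen2), against 24.7% of all genes.

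**Figure D3:**
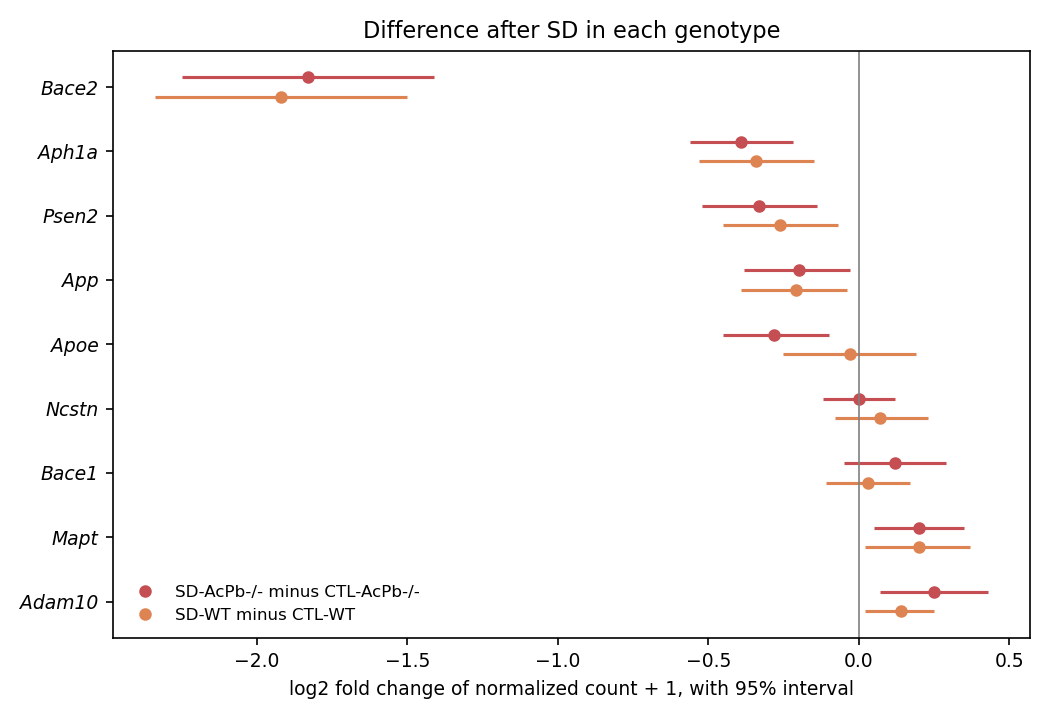
Log2 fold changes after SD (horizontal axis, normalized count + 1) of the 9 genes in AcPb-/- and wild-type mice, as points with 95% intervals from limma. Bace2 lies at -1.83 and -1.92, and the other 8 genes lie between -0.39 and 0.25.

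No difference between genotypes passed the test for any of the 9 genes. Between undisturbed genotypes 0 of the 9 passed by limma (0.0197% of all genes did), with log2 differences, AcPb-/- minus wild-type, from -0.25 for Bace2 to 0.15 for Apoe and 0 of the 9 at an unadjusted p under 0.05 (8.53% of all genes). After SD 0 of the 9 passed (0.0145% of all genes), with differences from -0.16 to 0.10, and again 0 of the 9 were at an unadjusted p under 0.05 (6.13% of all genes). Neither edgeR nor DESeq2 called any of the 9 in these comparisons. The intervals still allow a difference in Bace2 from -0.68 to 0.18 in undisturbed mice and from -0.58 to 0.26 after SD. Both comparisons use wild-type libraries from which Bace2 was chosen, so for Bace2 they are a description.

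Tested as an interaction in limma, the change with SD differed between the genotypes in 0 of the 9 genes and 0% of all 20978. At an unadjusted p under 0.05 it counted 0 of the 9 and 839 of all genes. edgeR called 0 genes and DESeq2 1, which was none of the 9. For Bace2, chosen from the wild-type libraries that this fit includes, the difference was 0.09 (standard error 0.28, 95% interval -0.53 to 0.70). The SD-AcPbKO mice set against CTL-WT, where genotype and SD change together, gave 3 of 9 genes past the threshold (Bace2, Aph1a and Psen2, all lower) against 27.7% of all genes. Bace2 was chosen with the same CTL-WT libraries, so nothing is read from its call here.

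Around the 9 genes, 5 lists of pathway genes, 78 genes without the 9, were examined in the same fits, and 76 of them could be tested. In AcPb-/- mice 8 of the 76 rose and 15 fell after SD (30.3%), and in wild-type mice 11 rose and 10 fell (27.6%), both near the shares of all genes. Of all genes, 14.1% rose and 13.3% fell in AcPb-/- mice, and 13.2% rose and 12.2% fell in wild-type mice. By list, with the 9 genes included, 23.8% to 40.9% passed in AcPb-/- mice, beside 27.4% of all genes. In wild-type mice 21.4% to 31.8% passed, beside 25.4%. With the Xist term, added after the data were seen, the counts were 9 and 16 of the 76 in AcPb-/- mice (32.9%) and 7 and 10 in wild-type mice (22.4%). The 15 genes of the App family and the secretases had 1 riser and 5 fallers in AcPb-/- mice, with a median log2 fold change of -0.0083. Beside the genes above, these were Aplp1, an App homolog (-0.48, standard error 0.07, limma adjusted p 0.00185), and the gamma-secretase subunit Psenen (-0.39, standard error 0.12, limma adjusted p 0.0425). In wild-type mice the list had 0 risers and 4 fallers, with Aplp1 at -0.39 and Psenen at -0.30, which did not pass (limma adjusted p 0.101). Psenen lost its call in AcPb-/- mice with the Xist term (-0.23, limma adjusted p 0.300). The list then had 0 risers and 4 fallers in AcPb-/- mice, and 0 risers and 3 fallers in wild-type mice.

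Of 22 genes of App trafficking and adaptors, 3 rose and 6 fell in AcPb-/- mice (median 0.068), and 4 rose and 3 fell in wild-type mice. Lrp8, a receptor for reelin and apolipoprotein E, rose by 0.79 (standard error 0.07, limma adjusted p 0.000577). The App adaptors Apbb3 and Apbb1 fell by 0.45 and 0.42, and the gamma-secretase activating protein Gsap fell by 0.44 (limma adjusted p 0.00117, 0.00255 and 0.0191). In wild-type mice Lrp8 was at 0.72, Apbb3 at -0.36 and Apbb1 at -0.35, and Gsap, at -0.22, did not pass (limma adjusted p 0.249). All 4 passed with the Xist term in AcPb-/- mice (limma adjusted p 0.000208 to 0.0128). With that term 4 genes of the list rose and 6 fell in AcPb-/- mice, and 1 rose and 4 fell in wild-type mice.

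Of 13 genes of amyloid beta degradation and lipoprotein clearance, 0 rose and 4 fell in AcPb-/- mice (median -0.12), and 1 rose and 3 fell in wild-type mice. In each genotype 30.8% of the list passed, beside 27.4% of all genes in AcPb-/- mice and 25.4% in wild-type mice. Besides Apoe, Abca1, which loads lipid onto Apoe, fell by 0.34 (standard error 0.07, limma adjusted p 0.00784) and the lipoprotein receptor Vldlr by 0.28 (standard error 0.08, limma adjusted p 0.0338). In wild-type mice Vldlr was at -0.26, and Abca1, at -0.03, did not pass (limma adjusted p 0.831). With the Xist term Vldlr was at -0.19 in AcPb-/- mice and its call was lost (limma adjusted p 0.102), and Abca1 was at -0.40 (limma adjusted p 0.00861). In wild-type mice Vldlr also lost its call with that term (-0.17, limma adjusted p 0.168). With the term 1 gene of the list rose and 4 fell in AcPb-/- mice, and 2 rose and 2 fell in wild-type mice.

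Among the 14 tested genes known as substrates of BACE enzymes, 2 rose and 2 fell in AcPb-/- mice (median 0.029), and 1 rose and 2 fell in wild-type mice. The adhesion gene Pcdh20 fell by 0.83 (standard error 0.10, limma adjusted p 0.00107) and the Notch ligand Jag1 by 0.60 (standard error 0.09, limma adjusted p 0.00245). Fgfr1, a growth factor receptor, rose by 0.39 and neuregulin Nrg1 by 0.37 (limma adjusted p 0.0033 and 0.0321). In wild-type mice Pcdh20 was at -0.86 and Fgfr1 at 0.46, whereas Jag1, at -0.40, and Nrg1, at 0.05, did not pass (limma adjusted p 0.0514 and 0.782). With the Xist term Nrg1 alone of the 4 lost its call in AcPb-/- mice (0.31, limma adjusted p 0.143). The list then had 1 riser and 2 fallers in AcPb-/- mice, and 1 riser and 1 faller in wild-type mice. Of 21 tested genes of tau and its kinases and phosphatases, 3 rose and 2 fell (median 0.043). The microtubule proteins Map1b and Map2 rose by 0.47 and 0.40 (limma adjusted p 0.0289 and 0.00414), and Cdk5r1, an activator of the tau kinase Cdk5, fell by 0.35 (limma adjusted p 0.0196). In wild-type mice 5 rose and 1 fell, with Map2 at 0.27 and Cdk5r1 at -0.24, and Map1b, at 0.24, did not pass (limma adjusted p 0.0613). Map1b lost its call in AcPb-/- mice with the Xist term (0.30, limma adjusted p 0.0891). With that term Cdk5r1 lost its call in wild-type mice (-0.15, limma adjusted p 0.235). The tau list then had 3 risers and 3 fallers in AcPb-/- mice, and 3 risers and 1 faller in wild-type mice.

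**Figure D4:**
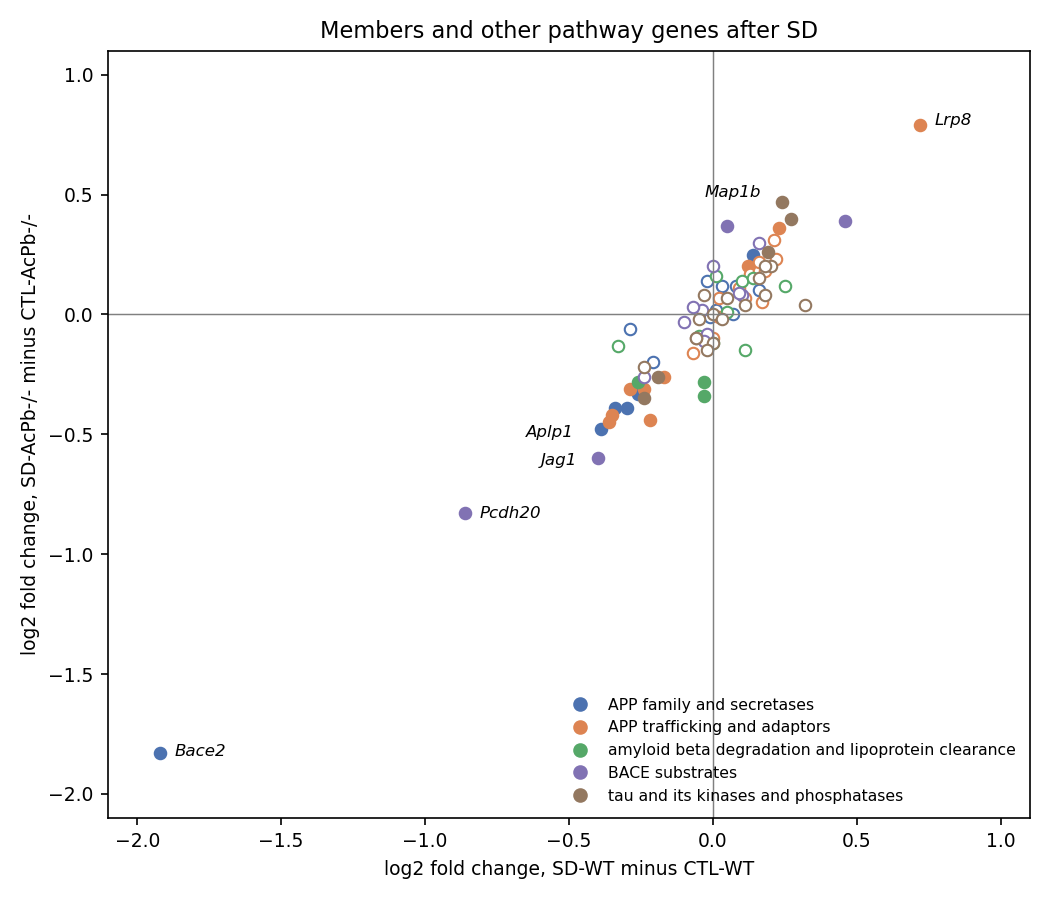
Log2 fold changes after SD in wild-type (horizontal axis) and AcPb-/- mice (vertical axis) of the 9 genes and the other pathway genes, coloured by list, with filled points for genes past the threshold in AcPb-/- mice. Bace2 lies by itself at -1.92 and -1.83, and the lowest of the other points drawn is Pcdh20 (-0.86 and -0.83).

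The genes whose level most resembled that of Bace2 were ranked by Pearson's r of log2 values over the 12 libraries, among 13364 genes with a mean of at least 50. These libraries fall into SD and undisturbed groups that also differ in depth, which all genes share, so r describes the pattern only. The highest were Cep83os (r = 0.994), Vgll4 (0.983), Fundc2 (0.982), Sypl (0.981) and Mat2b (0.979), and the lowest were Lrrfip1 (-0.988), Zmiz1 (-0.988), Rab15 (-0.985), Gse1 (-0.984) and Pip4k2b (-0.983). Their fold changes were smaller than that of Bace2, from -0.90 for Mat2b to -0.40 for Sypl in AcPb-/- mice at the upper end. By deviations from the group means over the 12 libraries, the closest were Fam204a (0.962), Lin52 (0.957), Dck (0.956), Barx2 (0.952) and Cd320 (0.931), none of which was among the first 5. Of the other 8 genes of the report, Aph1a (0.943), Psen2 (0.913) and App (0.884) lay closest to Bace2, and Mapt (-0.899) and Adam10 (-0.838) were opposite.

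Bace2 spans chr16:97356742-97442936 on the + strand of GRCm38, and 5 genes within 500 kb of it had a mean of at least 10. Dscam, a neuronal adhesion gene, rose after SD in AcPb-/- mice (0.40, standard error 0.11, limma adjusted p 0.0269), a call lost with the Xist term (0.25, limma adjusted p 0.186). The interferon-induced genes Mx1, which lies 4099 bases past the end of Bace2, and Mx2 had log2 fold changes of -0.56 (standard error 0.30) and -0.25 (standard error 0.28) and did not pass the test (limma adjusted p 0.213 and 0.557). Prdm15 and C2cd2 were at 0.20 and 0.08 (limma adjusted p 0.0522 and 0.568). Mx1 and Mx2 were low, with mean normalized counts of 14.4 and 44.2, which limits their tests. In wild-type mice Dscam was at 0.32 (limma adjusted p 0.0426), a call lost with the Xist term (0.17, limma adjusted p 0.413). There Mx1 was at -0.80 (standard error 0.32, limma adjusted p 0.0971), Mx2 at -0.16, Prdm15 at 0.17 and C2cd2 at -0.10. None of the 5 fell past the threshold in either genotype. App lies on the same chromosome at chr16:84949685-85173766 on the - strand, and Il1rap, the locus of the deletion, ends 70.6 Mb before Bace2 and 58.2 Mb before App.

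Some oligodendrocyte markers also fell after SD, 2 of 8 in AcPb-/- mice (13.3% of all genes) and 5 of 8 in wild-type mice (12.2% of all genes). Their summed normalized counts overlapped between groups, at 54883 to 126296 in CTL-AcPbKO and 70955 to 106306 in SD-AcPbKO, and at 108791 to 138704 in CTL-WT and 87771 to 121090 in SD-WT, whereas Bace2 did not overlap in either genotype. Their part in the Bace2 values was not tested. Choroid plexus markers summed to 18140 in SD-AcPbKO 04 against at most 888 in the controls. Without that library the Bace2 log2 fold change was -1.74 (limma adjusted p 0.00528).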

How the data were processed

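The deposited tables hold normalized counts (a signal unit), which the authors made by aligning reads of a stranded mRNA kit to mm10 with HISAT2 (version 2.2.1), counting reads per gene and dividing by DESeq2 size factors (version 1.31.16, per the labels' processing notes). The notes name featureCounts and the study's methods HTSeq. The counting strand and annotation are not given in the sources used here. In 5 tables of 24421 genes, undoing the factors gave whole reads (tolerance 0.01) for 100.0% of 732630 values, and levels across the 12 libraries use 1 median-of-ratios factor per library. The authors' own columns of log2 fold changes, standard errors, test scores and p-values, first group over second, were not used.

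limma (version 3.58.1, R 4.3.3, variance trend) was run on log2(normalized count + 1) for the libraries of each table, keeping genes that had any read there (4 residual degrees of freedom). The difference of SD effects was fitted on all 12 libraries (8 residual degrees of freedom). P-values were adjusted over all genes by Benjamini-Hochberg, with a threshold of 0.05. The median of genes with a mean of at least 10 was within 0.0072 of 0 in every comparison. The tests were tested on simulated data. Gene symbols were matched to GENCODE M21 on GRCm38 (23384, 95.8%), whose merged exons gave RPKM. Nothing in the labels pairs same-numbered mice, and deviations of same-numbered libraries correlated between -0.55 and 0.33 over 10 pairs.

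The 9 genes, the 5 pathway lists and the 10 marker lists were chosen with earlier results of these data known. Besides the 9, genes named are up to 4 per list past the threshold with the largest change in AcPb-/- mice and a mean of at least 50, the 5 most and least like Bace2 and the 5 most like it within groups, neighbours within 500 kb, and label checks. Of the list genes, 1 is included in the counts and is not reported or drawn by itself here. Genes below Bace2 in rank were named after their values were seen. Alternatives were pseudocounts of 0.1 and 10, genes with a mean of at least 10, no variance trend, centring on the median, edgeR (version 4.0.16) and DESeq2 (version 1.42.0) on recovered reads, 1 fit of 12 libraries with or without an Xist term, thinning to the smallest total, the replicate number as a block, an adjusted p under 0.01, and each library left out. Python 3.11.15, NumPy 2.4.6, pandas 2.3.3, Biopython 1.88 and matplotlib 3.10.9 were used.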

Additional observations from a re-analysis of the deposited data

How the results depend on the processing

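In AcPb-/- mice the fall of Bace2 after SD kept its direction under all 17 alternatives and passed the threshold in 16, the exception being the replicate block. In wild-type mice, from which Bace2 was chosen, its log2 fold change was -2.13 to -1.57 over the alternatives, given with no test. With the replicate number as a block, 1 residual degree of freedom was left in each SD comparison and 0 genes passed, and Bace2 was at -1.74 in AcPb-/- mice (limma adjusted p 0.188) and -1.85 in wild-type mice. Same-numbered mice share only a number, and no block could be tested between undisturbed genotypes, where no residual degree of freedom was left.

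Counts of the 9 genes past the threshold are followed by those of all genes in brackets. In AcPb-/- mice 5 passed after SD (5633), 3 with no variance trend (3608), 3 with the Xist term (5189), 0 with the replicate block (0), 2 at an adjusted p under 0.01 (2656), and 2 to 5 with 1 library left out, 2 without CTL-AcPbKO 04 (3417) and 3 without CTL-AcPbKO 05 (4126), SD-AcPbKO 02 (3393) or SD-AcPbKO 04 (3575). In wild-type mice 3 passed (5186), 1 with no variance trend (2536), 5 with DESeq2 (5378), 1 with the Xist term (4057), 0 with the replicate block (0), 1 at an adjusted p under 0.01 (2360), and 1 to 5 with 1 library left out, 1 without CTL-WT 02 (2699), SD-WT 01 (2941) or SD-WT 02 (2836) and 5 without SD-WT 04 (6222). For SD-AcPbKO against CTL-WT 3 passed (5697), 6 with genes of a mean of at least 10 (5962), with edgeR (5796), DESeq2 (5799) and 1 fit of 12 libraries (5899), 0 with the replicate block (0), and 2 to 5 with 1 library left out, 5 without SD-AcPbKO 03 (6008). The cause was not tested.

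Signs turned only for differences near 0. Bace1 after SD became -0.013 in AcPb-/- and -0.093 in wild-type mice with the Xist term and -0.023 in wild-type mice with the block. Ncstn in AcPb-/- mice became -0.021 when thinned and -0.023 with the block, and was -0.026 to 0.028 with 1 library left out. Apoe in wild-type mice became 0.011 with the block and was -0.130 to 0.062 with 1 library left out. The difference of the Bace2 effects between genotypes became -0.152 when thinned and was -0.058 to 0.291 with 1 library left out. Between genotypes, 0 of the 9 passed under every alternative run.

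SD and control libraries differ in depth without overlap. By their Xist and Y-linked reads, 4 of 6 controls but no SD library came from female tissue. SD can therefore not be fully told apart from depth or from sex. Thinned to the smallest total, Bace2 was at -1.85 in AcPb-/- mice.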
